A study of Arabidopsis thaliana with 10 samples.

Results

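The SMALL AUXIN UP RNA (SAUR) family was followed in dark-grown Arabidopsis thaliana seedlings that lacked different PHYTOCHROME INTERACTING FACTORS (PIFs). The members were 46 SAUR loci chosen by their locus identifiers, out of 33322 loci in the count tables. They formed 6 tandem arrays of neighbouring copies, each called here after 1 of its members, and a group of 17 dispersed genes. The SAUR19 array held 6 loci on chromosome 5 (5962773 to 5984308 in TAIR10.1), the SAUR63 array 6 loci on chromosome 1 (10302585 to 10323239), and the SAUR50 array 6 loci on chromosome 4 (16577180 to 16599568). The SAUR26 array held 4 loci on chromosome 3 (976715 to 983768), the SAUR15 array 4 loci on chromosome 4 (18121526 to 18131284), and the SAUR6 array 3 loci on chromosome 2 (9083906 to 9090052).

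SAUR proteins are small and are among the fastest responders to auxin. The best studied of them bind and inhibit type 2C phosphatases of the D clade (PP2C.D), which keeps plasma membrane proton ATPases phosphorylated and active, acidifies the cell wall and lets the cell expand. PIFs are basic helix-loop-helix factors that promote hypocotyl growth in darkness and are degraded when light activates the phytochromes. In seedlings, some SAURs are known for hypocotyl elongation and others for the opening and growth of cotyledons.

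The mutant groups were the quadruple mutant pifq, labelled as lacking PIF1, PIF3, PIF4 and PIF5, the 4 triple mutants pif345, pif145, pif135 and pif134, and the 4 single mutants pif1, pif3, pif4 and pif5. They were compared with wild type (WT), all in the Columbia background, with 3 biological replicates (A, B and C) per genotype. Whole seedlings, 2 days old, were harvested after 48 h of darkness at 21 °C that followed 3 h of white light and a far-red pulse of 15 min. The labels name the mutated genes and not the alleles, and each triple mutant retains 1 of the 4 PIFs by its name.

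The libraries held 18.97 M to 70.8 M counted reads (median 25.2 M). Replicate letters deviated together in 19 of 20 pairs of genotypes within WT and the single mutants or within the triple mutants and pifq (not pif345 with pif145), and in 1 of 25 pairs between these sets (pif134 with WT), so where a triple mutant or pifq is set against WT, genotype and library set cannot be told apart. In the libraries labelled as lacking them, PIF3 was at 1.35 to 6.91 CPM (counts scaled to a common library size) and PIF5 at 0 to 0.592 CPM, against 69 to 82.7 CPM and 6.97 to 7.39 CPM in WT. PIF1 was at 1.05 to 14.9 CPM in pif1, pif145, pif135 and pifq. Of the 4 PIFs, 3 were called lower against WT in pif135 and in pifq but only 1 in pif145. PIF1 and PIF5, which pif145 lacks by its label, were thus not both called lower there. It was not low in the libraries labelled pif134, at 58.1, 56.7 and 74.5 CPM, against 22.6, 20.7 and 31.8 CPM in WT. PIF4 was not low in any genotype labelled as lacking it, with 49, 57.8 and 31.8 CPM in pifq and 13.6, 26.2 and 16.4 CPM in pif4, against 13.6, 11.7 and 10 CPM in WT, and it was called higher in pifq (1.98 ± 0.34, adjusted p = 0.00017), pif345, pif145 and pif134. It was also called higher in pif135, which by its label keeps PIF4 (log2 fold change 2.41). Counts came from transcript 3′ ends and the labels do not say where the lesions lie, so the PIF4 counts do not check the labels, and all genotypes are called by their label throughout. In bulk seedlings, fewer cells that express a gene and less RNA per cell cannot be told apart. Marker sums for organs differed as well. The 5 root hair markers summed to 1.42 to 7.69 CPM in pifq, against 20.5 to 36.7 CPM in WT, the 10 seed storage markers to 155 to 767 CPM in pifq, against 2534 to 4669 CPM in WT, and the 8 antenna markers of green cotyledons to 31928 to 47665 CPM in pifq, against 2145 to 5061 CPM in WT. Of these markers 4, 7 and 8 were called in pifq against WT. The root hair marker PRP1 was at 0 in pifq A, and the storage gene SESA4 in pifq C, WT A and WT B.

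Of the 46 members 32 had enough counts to be tested, and the other 14 were listed at 0 in every one of the 30 libraries. These 14 were SAUR20 (AT5G18020), SAUR22 (AT5G18050) and SAUR24 (AT5G18080) of the SAUR19 array, SAUR29 (AT3G03820) of the SAUR26 array, SAUR13 (AT4G38825) of the SAUR15 array, SAUR7 (AT2G21200) and SAUR12 (AT2G21220) of the SAUR6 array, SAUR4 (AT4G34800) and SAUR5 (AT4G34810) of the SAUR50 array, and the dispersed SAUR10, SAUR11, SAUR30, SAUR53 and SAUR75. They made up 30.4% of the members, while 17.2% of 26711 protein-coding loci were listed at 0. A listed 0 need not mean that no transcript was present: NOP10, TIM13 and MT1A, which encode a nucleolar, a mitochondrial import and a metallothionein protein, were also listed at 0. The coding sequences of the SAUR19 array were 87.7% to 95.2% identical, and how the authors treated reads that fit several copies is not given in the sources used here. Within the last 300 bases of the transcript, 29.4% of 36-base windows of SAUR19 and 24.9% of those of SAUR20 recurred in annotated mRNAs of other loci. The share was 0% for SAUR21 and SAUR23, and the rest of the genome was not searched. Of the members listed at 0, 3 of 14 had any recurring window, against 22.9% of all protein-coding loci at 0. Of those counted 9 of 32 had one, against 6.92% of all counted loci. Values for SAUR19 are therefore uncertain as to which copy they describe. The annotated 3′ end of SAUR6 (26.6%), at 9084628, lies within the span of SAUR7 (9083906 to 9084803) on the same strand. Windows in the shared bases recur by this overlap, and reads there fit both loci.

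The 32 tested members did not move as 1 block across the genotypes. Across the 10 genotype means of log CPM, pairs within an array had a median correlation of 0.87 (30 pairs) and all other pairs one of 0.35 (466 pairs). This is a description of points that share libraries and depth. The SAUR63 array held together most closely (median 0.90), whereas members of the SAUR50 array did not (0.27). Mean levels were highest in pif4 for 15 of the 32 members and lowest in pif345 for 12. The same counts were not taken over all loci, so these have no background. Single libraries also stood apart in many members at once: 28 of 32 lay above their genotype's mean in WT A, 29 in pif4 B, 29 in pif345 A and 26 in the library labelled pif134 A, while 30 lay below it in pif345 C. The sum over all members was 602 to 895 CPM in pifq, 501 to 686 CPM in pif345, 874 to 1439 CPM in pif4 and 708 to 1117 CPM in WT.

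In pifq SAUR25, SAUR23, SAUR9, SAUR36 and SAUR19 fell and SAUR14 and SAUR6 rose, while the other 25 tested members did not pass the test. Of 32 members 7 were called in pifq against WT (adjusted p under 0.05, edgeR's quasi-likelihood test, Benjamini-Hochberg over 18680 loci), against 15.2% of all loci. Of these, 5 were lower, against 7.17% of all loci, and 2 were higher, against 8.01%. The median log2 fold change was -0.18 over the tested members and -0.01 over all loci.

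SAUR25 (AT4G13790, chromosome 4), a dispersed gene, had 1.15, 0.991 and 1.01 CPM in pifq, against 13.5, 8.86 and 7.75 CPM in WT. All pifq libraries lay far below all WT libraries. The log2 fold change was -3.24 ± 0.55 (SE from the joint fit, n = 3 per genotype, adjusted p = 1.26e-04), or 9.48-fold lower. SAUR23 (AT5G18060) belongs to the SAUR19 array, whose products promote cell expansion when stabilised. It had 7.26, 19.6 and 13.2 CPM in pifq, against 66.6, 32.1 and 34.3 CPM in WT, a log2 fold change of -1.73 ± 0.34 (adjusted p = 0.000787). The groups did not overlap, and WT A was the highest WT library.

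SAUR19 (AT5G18010), the member in which inhibition of PP2C.D phosphatases was worked out, had 15.7, 36.8 and 24.7 CPM in pifq, against 64.8, 48.2 and 53.4 CPM in WT (-1.11 ± 0.35, adjusted p = 0.0289). The third counted copy of the array, SAUR21 (AT5G18030), had 15.7, 29.4 and 22.2 CPM in pifq, against 44.5, 28.9 and 35.8 CPM in WT. There pifq B overlapped WT, and the difference did not pass the test (-0.70 ± 0.30, adjusted p = 0.117). With the 6 loci of the array summed, the array was lower in pifq by -1.15 ± 0.30 (log2, adjusted p = 0.0102). The sum does not depend on how counted reads were split between copies. It does depend on whether reads that fit several copies were counted, which is not given.

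SAUR9 (AT4G36110), whose product also binds PP2C.D phosphatases, had 14.8, 9.3 and 14.6 CPM in pifq, against 71.9, 18.5 and 29.2 CPM in WT (-1.63 ± 0.52, adjusted p = 0.0312). SAUR36 (AT2G45210), linked to leaf senescence, had 10.1, 9.01 and 7.53 CPM in pifq, against 33.7, 15.2 and 15.1 CPM in WT (-1.26 ± 0.33, adjusted p = 0.00845). In both genes the groups were separate, and WT A lay far above the other WT libraries.

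SAUR14 (AT4G38840) of the SAUR15 array went the other way, with 78.8, 138 and 103 CPM in pifq, against 43.2, 35.7 and 30.1 CPM in WT. Every pifq library lay above every WT library, by 1.55 ± 0.31 on the log2 scale (adjusted p = 7.04e-04). Neither of its tested neighbours passed the test. SAUR16 (AT4G38860) was at 15.2, 31.0 and 25.1 CPM in pifq, against 52.9, 33.5 and 40.6 CPM in WT (-0.83 ± 0.29, adjusted p = 0.0524), and SAUR15 (AT4G38850), the classical auxin-induced SAUR-AC1, had a log2 fold change of 0.41 ± 0.46 (adjusted p = 0.595). The summed SAUR15 array was higher in pifq (0.72 ± 0.24, adjusted p = 0.0412). SAUR6 (AT2G21210) had 24.3, 23.5 and 24.6 CPM in pifq, against 6.2, 16.3 and 12.7 CPM in WT (1.04 ± 0.34, adjusted p = 0.0387), so the spread lay within WT.

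**Figure D1:**
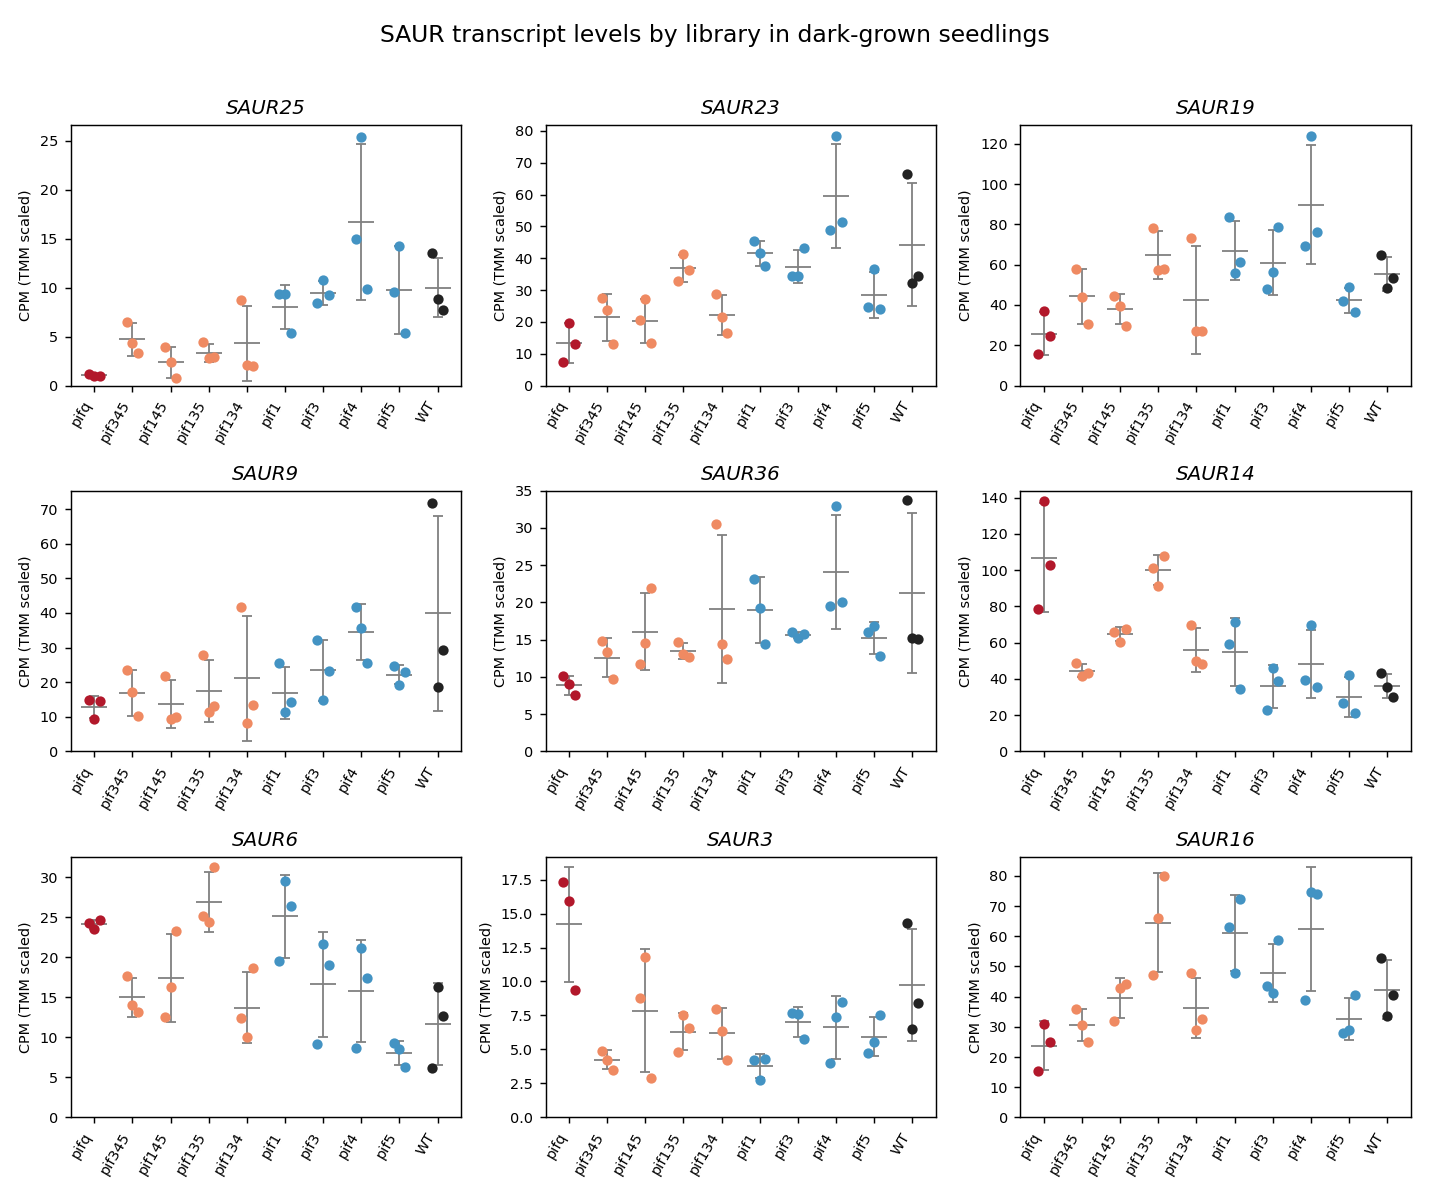
CPM (scaled by TMM, linear axes from 0) of 9 SAUR members in each of the 30 libraries, with pifq in red, triple mutants in orange, single mutants in blue and WT in black. Each point is 1 library, in the order A, B, C from left to right, and the grey lines give the mean and SD (n = 3). SAUR25 was near 1 CPM in all 3 pifq libraries, SAUR14 was highest in pifq and pif135, and WT A was high for SAUR9 and SAUR36.

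None of the 6 tested members of the SAUR63 array, a clade that promotes hypocotyl and stamen filament elongation, was called in pifq against WT, and their log2 fold changes ran from -0.45 to 0.12. The 3 tested members of the SAUR26 array, a clade known for growth at warm temperature, ran from -0.43 to 0.08, and none was called. Of the SAUR50 array, SAUR50 (AT4G34760), known for its part in cotyledon opening, had 51.2, 60.5 and 76.1 CPM in pifq, against 126, 94.3 and 97 CPM in WT. All pifq libraries were lower, but the difference did not pass the test (-0.76 ± 0.34, adjusted p = 0.129). SAUR3 (AT4G34790) of the same array had a log2 fold change of 0.55 ± 0.37 (adjusted p = 0.349). Among the dispersed genes without a call were SAUR71 (AT1G56150; 1.00 ± 0.41, adjusted p = 0.102), SAUR72 (AT3G12830; -1.02 ± 0.46, adjusted p = 0.134) and SAUR32 (AT2G46690; -0.76 ± 0.35, adjusted p = 0.141), known from the apical hook. In all, 7 of 32 members had every pifq library below every WT library, against 16.3% of all loci, and 3 had every pifq library above, against 16.4%.

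The calls of SAUR25, SAUR23 and SAUR14 held whichever 1 of the 6 libraries was left out. SAUR36 lost its call without WT A, SAUR9 without WT A or any pifq library, SAUR19 without WT A, WT C, pifq A or pifq C, and SAUR6 without WT A, WT C or any pifq library. Over these omissions the log2 fold change ran from -1.46 to -0.77 for SAUR36, from -1.97 to -0.89 for SAUR9, from -1.47 to -0.86 for SAUR19 and from 0.73 to 1.34 for SAUR6. The number called was 3 without WT A and 4 without pifq A or pifq C. Such counts after an omission, here and below, are given without the share of all loci called. They show only how far calls depend on single libraries. The marker sums given above differed between the same groups, and their part in these differences was not tested.

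The sequences before the annotated starts of the 4 members with the largest changes were read because PIFs are known to bind the G-box CACGTG and the PBE-box CACATG. The 250 bases on the gene's strand are given 5′ to 3′ from RefSeq's TAIR10.1, with CACATG or its reverse complement CATGTG in capitals: SAUR25 at chr4:8000373-8000622 (minus strand), SAUR23 at chr5:5975530-5975779 (plus strand), SAUR9 at chr4:17089684-17089933 (plus strand) and SAUR14 at chr4:18125560-18125809 (minus strand).
SAUR25: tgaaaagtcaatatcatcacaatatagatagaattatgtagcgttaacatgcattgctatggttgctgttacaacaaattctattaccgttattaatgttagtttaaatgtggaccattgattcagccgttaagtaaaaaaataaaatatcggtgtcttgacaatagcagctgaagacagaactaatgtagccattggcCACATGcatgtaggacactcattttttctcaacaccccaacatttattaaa
SAUR23: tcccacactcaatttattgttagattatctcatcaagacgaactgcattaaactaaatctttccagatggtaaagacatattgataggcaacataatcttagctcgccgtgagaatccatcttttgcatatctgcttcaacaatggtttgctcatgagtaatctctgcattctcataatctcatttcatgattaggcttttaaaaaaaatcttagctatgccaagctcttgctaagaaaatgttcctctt
SAUR9: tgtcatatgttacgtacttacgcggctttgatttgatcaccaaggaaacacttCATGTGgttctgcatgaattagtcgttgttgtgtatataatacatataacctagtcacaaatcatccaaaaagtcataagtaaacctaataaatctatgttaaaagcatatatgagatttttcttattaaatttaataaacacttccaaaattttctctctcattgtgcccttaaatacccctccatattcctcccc
SAUR14: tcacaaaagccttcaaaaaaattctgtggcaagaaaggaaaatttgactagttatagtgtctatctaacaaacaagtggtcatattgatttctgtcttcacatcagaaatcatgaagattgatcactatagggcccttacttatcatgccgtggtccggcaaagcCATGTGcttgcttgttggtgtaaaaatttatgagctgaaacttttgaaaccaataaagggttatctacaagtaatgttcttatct

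The PBE-box match began at position -51 in SAUR25, at -197 in SAUR9 and at -85 in SAUR14. Positions count from the annotated start without a 0, so the base just before it is -1. SAUR23 held none of the motifs from 250 bases before to 50 after the start. Its stretch ends there in the letters catg, which begin CATGTG, so a match running past that edge would be missed. Over a window of 250 bases before to 50 after the start, on both strands, CACATG was found in 25 of 46 members (54.3%), against 13% of 26710 protein-coding loci. Only SAUR59 (AT3G60690) held the G-box (2.17% of members, against 7.79% of loci), and 8 members held the auxin response element TGTCTC (17.4%, against 14.2%). Of the 32 tested members 18 held CACATG, among them 5 of the 7 called in pifq against WT, both lower (SAUR25, SAUR9, SAUR19) and higher (SAUR14, SAUR6). Copies in an array share sequence by descent, so the windows are not independent, and a match is a description of letters, not a binding site.

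**Figure D2:**
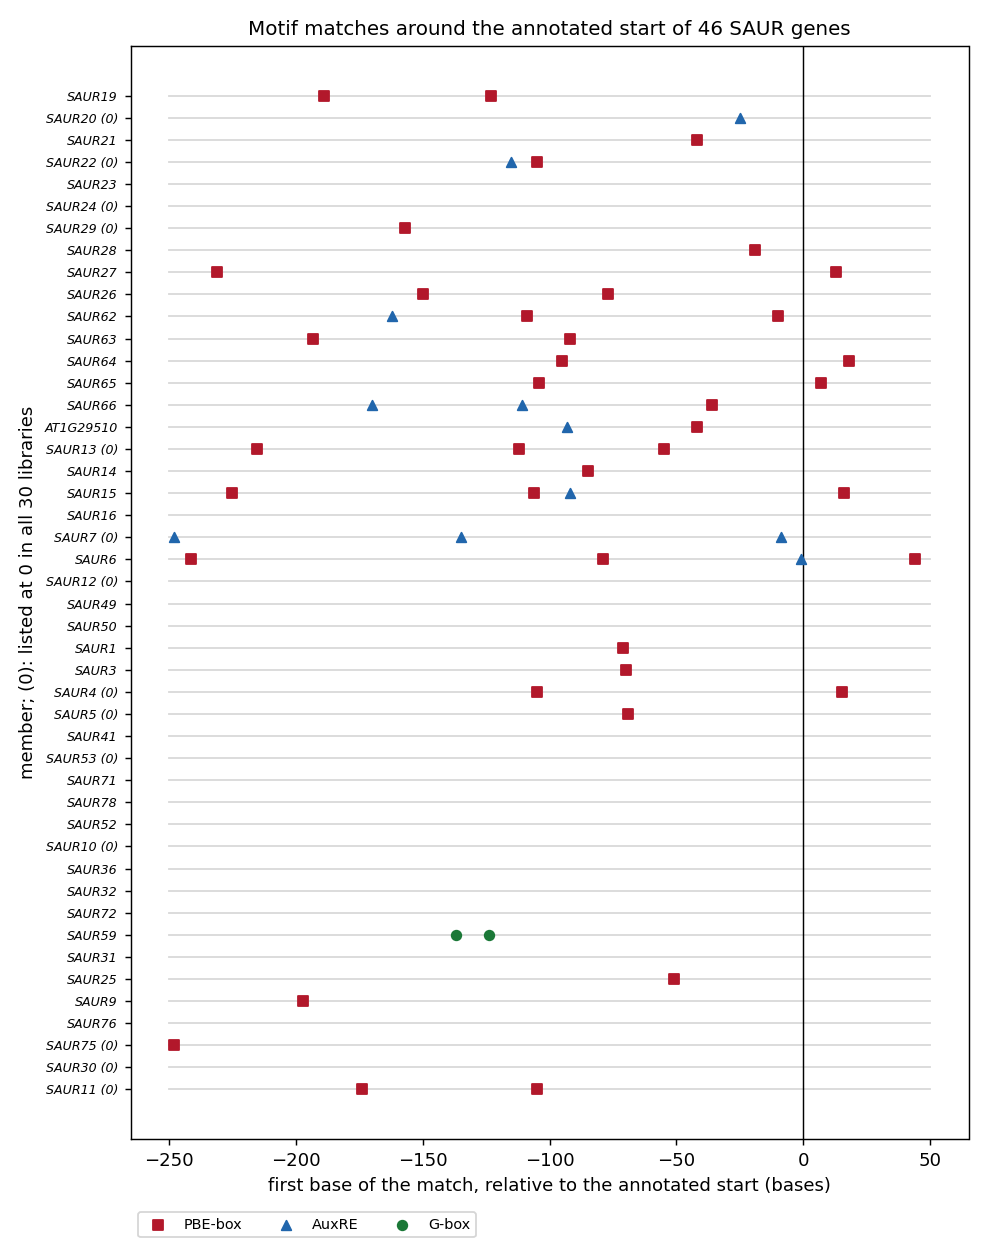
Position of the first base of each motif match in the 46 members, ordered by array with the dispersed genes last. The x axis gives bases relative to the annotated start, from 250 before to 50 after, and no base has position 0. Squares are PBE-box, triangles auxin response element (AuxRE) and circles G-box matches, and (0) marks members listed at 0 in all libraries. PBE-box matches occur in 25 members, including all 6 of the SAUR63 array and all 4 of the SAUR26 array, and the G-box in SAUR59 alone.

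By their labels the triple mutants each keep 1 of the 4 PIFs, although in the libraries labelled pif134 the PIF1 count was not low either. All comparisons with WT share the 3 WT libraries, so their values are set side by side and not counted as independent. In pif345, which keeps PIF1, 1 of 32 members was called, against 3.9% of all loci. It was SAUR72, a relative of SAUR41 whose product can bind a PP2C.D phosphatase, with 6.51, 4.98 and 1.81 CPM in pif345, against 21.5, 4.69 and 15.1 CPM in WT (-1.63 ± 0.47, adjusted p = 0.0447). The groups overlapped, because WT B was as low as pif345, and the call was lost without WT A, WT C, pif345 B or pif345 C, with log2 fold changes from -2.03 to -1.13. The tested members lay lower as a list in pif345, with a median log2 fold change of -0.58 and 28 of 32 below 0, against a median of 0.00 over all loci. In 15 of 32 every pif345 library was below every WT library, against 14.1% of all loci. With library totals in place of TMM the median of all loci was 0.17 and that of the members -0.41.

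In pif145, which keeps PIF3, 3 of 32 members were called, all lower, against 12.1% of all loci called in either direction. SAUR25 had 3.95, 2.42 and 0.742 CPM in pif145, against 13.5, 8.86 and 7.75 CPM in WT (-2.06 ± 0.51, adjusted p = 0.0078). The groups were separate, with pif145 C the lowest of all 30 libraries, and the call was lost without pif145 C. SAUR23 (-1.12 ± 0.34, adjusted p = 0.0294) lost its call without WT A, pif145 A or pif145 C, and SAUR9 (-1.54 ± 0.51, adjusted p = 0.0489), whose groups overlapped, without WT A, WT C, pif145 B or pif145 C. The number called was 1 without WT A and 0 without pif145 C. SAUR14 had 66.2, 60.4 and 67.7 CPM in pif145, above all WT libraries, but missed the threshold (0.83 ± 0.30, adjusted p = 0.0687).

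In pif135, which by its label keeps PIF4, 3 of 32 members were called, against 12.6% of all loci. SAUR14 was at 101, 91.4 and 108 CPM in pif135, against 43.2, 35.7 and 30.1 CPM in WT (1.46 ± 0.31, adjusted p = 0.00181), and its call held without any 1 library. SAUR6 was at 25.1, 24.4 and 31.3 CPM in pif135, against 6.2, 16.3 and 12.7 CPM in WT (1.19 ± 0.34, adjusted p = 0.0209; call lost without WT A, WT C or pif135 C). SAUR25 had 4.42, 2.8 and 2.87 CPM in pif135, all below WT (-1.58 ± 0.49, adjusted p = 0.0342; call lost without WT A, pif135 B or pif135 C). SAUR19 and SAUR23 did not pass the test in pif135 against WT: SAUR19 was at 78.3, 57.6 and 57.7 CPM in pif135, against 64.8, 48.2 and 53.4 CPM in WT (0.22 ± 0.34, adjusted p = 0.722), and SAUR23 gave -0.26 ± 0.33 (adjusted p = 0.65). The number called was 1 without WT A or pif135 C.

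Among the members, the libraries labelled pif134 gave 4 calls of 32 against WT, where 16.9% of all loci were called. SAUR71, a relative of SAUR72, had 3.21, 1.78 and 1.9 CPM in pif134, against 1.15, 0.706 and 0.493 CPM in WT, all higher (1.56 ± 0.41, adjusted p = 0.00797; call lost without WT C). SAUR72 went the opposite way, with 7.34, 3.6 and 4.6 CPM in pif134, against 21.5, 4.69 and 15.1 CPM in WT (-1.41 ± 0.47, adjusted p = 0.0357). The groups overlapped at WT B, and the call was lost without WT A, WT C, pif134 B or pif134 C, with log2 fold changes from -1.82 to -0.94. SAUR50 (-0.98 ± 0.34, adjusted p = 0.0461; call lost without any WT library, pif134 B or pif134 C) and SAUR23 (-0.99 ± 0.34, adjusted p = 0.0424; call lost without WT A, pif134 B or pif134 C) were lower as well, without overlap. The library pif134 A stood apart in the family: SAUR19 had 73.3 CPM there, against 27.1 and 26.9 CPM in pif134 B and C, and SAUR25 had 8.78 CPM, against 2.11 and 2.01 CPM. The number called was 9 without pif134 A and 1 without WT A, WT C, pif134 B or pif134 C. The share of all loci called without pif134 A is not given, so the 9 is not set against a background. Same-letter libraries of pif134 and WT deviated together, and with the letter as a block 7 members were called, against 25.2% of all loci, among them SAUR25 (-1.34, adjusted p = 0.0119), SAUR9 (-0.97, adjusted p = 0.0222) and SAUR32 (-0.85, adjusted p = 0.0412). The root hair markers summed to 0.475 to 1.84 CPM in pif134, to 5.57 to 9.57 CPM in pif345, to 2.6 to 9.85 CPM in pif145 and to 7.48 to 16.6 CPM in pif135, and the antenna markers to between 10065 and 44294 CPM over the triple mutants. The seed storage markers summed to 2381 to 4333 CPM in pif345 and to between 15.6 and 380 CPM in the other triple mutants. Their part in the SAUR differences was not tested.

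**Figure D3:**
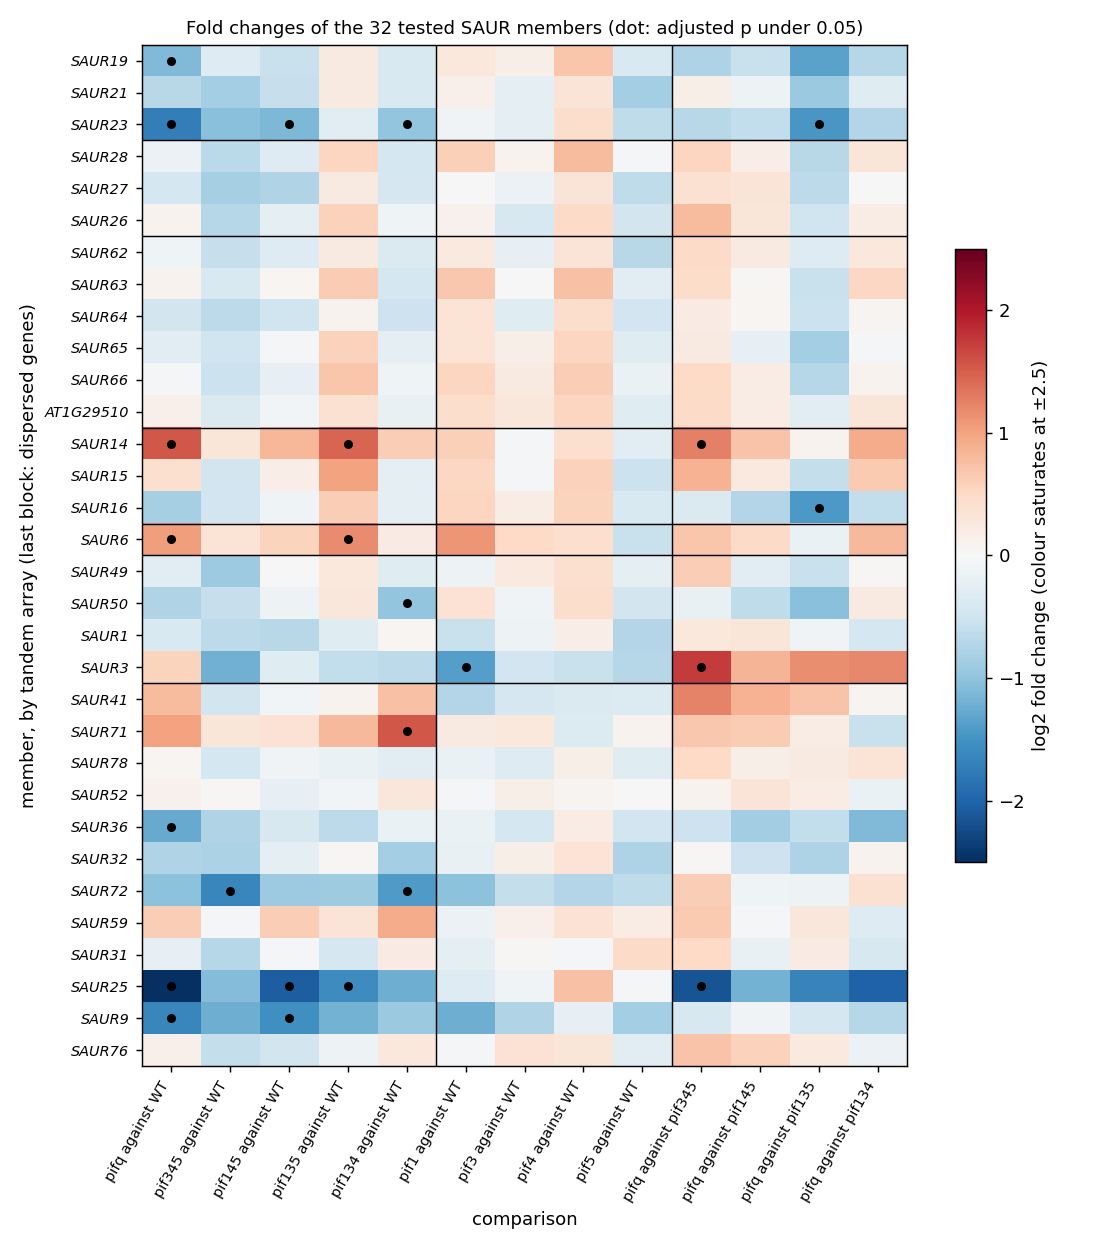
Log2 fold changes (colour, saturating at ±2.5) of the 32 tested members in rows, by array with the dispersed genes last, and the 13 comparisons in columns. A dot marks an adjusted p under 0.05. SAUR25 has a dot in pifq against WT and against pif345, SAUR14 is high in pifq and pif135, and SAUR19 and SAUR23 have a dot in pifq against WT but none in pif135 against WT.

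Loss of a single PIF called few members. In pif1, 1 of 32 was called, against 3.76% of all loci. SAUR3 had 4.23, 2.73 and 4.31 CPM in pif1, against 14.3, 6.47 and 8.41 CPM in WT, without overlap (-1.37 ± 0.39, adjusted p = 0.0428). Its call was lost without WT A, WT C or any pif1 library, with log2 fold changes from -1.62 to -1.01, while without WT B 2 members were called. With the replicate letters as a block within the set, 4 members were called, against 19.6% of all loci: SAUR3 (-1.37, adjusted p = 0.00614) and SAUR9 (-1.13, adjusted p = 0.0113) lower, SAUR6 (1.16, adjusted p = 0.0024) and SAUR63 (AT1G29440; 0.65, adjusted p = 0.0329) higher. SAUR6 was at 19.5, 29.5 and 26.4 CPM in pif1, against 6.2, 16.3 and 12.7 CPM in WT. In pif1 7 of 10 seed storage markers were called lower (sums of 57.2 to 77.6 CPM in pif1, against 2534 to 4669 CPM in WT) and 7 of 8 antenna markers higher (9900 to 23114 CPM in pif1, against 2145 to 5061 CPM in WT). None of the 5 root hair markers was called, although all reached an unadjusted p under 0.05 (8.65 to 14.8 CPM in pif1, against 20.5 to 36.7 CPM in WT), and the part of these markers was not tested. SESA2 was at 0 in pif1 C, and SESA4 in pif1 B and pif1 C.

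In pif3 no member was called, against 0.112% of all loci, none reached an unadjusted p under 0.05, against 4.11% of all loci, and DESeq2 called none. The log2 fold changes ran from -0.76 (SAUR9) to 0.49 (SAUR6). In pif4 no member was called by either tool, against 0.0589% of all loci by edgeR. There 26 of 32 tested members lay above 0, with a median log2 fold change of 0.38 against -0.01 over all loci, and 4 reached an unadjusted p under 0.05, against 3.62% of all loci. In 3 of 32 every pif4 library lay above every WT library, against 4.38% of all loci. In pif4 B 29 of 32 members lay above the genotype's mean, and SAUR19 had 69.5, 124 and 76.1 CPM in pif4, against 64.8, 48.2 and 53.4 CPM in WT.

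In pif5 the family lay on the other side, with 28 of 32 tested members below 0 and a median of -0.38 against -0.01 over all loci. No member was called, against 0.128% of all loci, DESeq2 called none, and 3 reached an unadjusted p under 0.05, against 12.8% of all loci. They were SAUR21 (-0.84 ± 0.30), SAUR62 (AT1G29430; -0.70 ± 0.29) and SAUR32 (-0.78 ± 0.35), with adjusted p of 0.233, 0.305 and 0.335. In 6 of 32 every pif5 library was below every WT library, against 9.11% of all loci. With the letters as a block within the set, SAUR1 (AT4G34770) was called (-0.74, adjusted p = 0.0387), against 7.29% of all loci. With library totals in place of TMM the median of all loci was 0.19 and that of the members -0.17. No marker was called in pif5 against WT, but 9 of 10 seed storage markers lay above 0 (median 0.69) and 3 of them reached an unadjusted p under 0.05, with sums of 1843 to 7703 CPM in pif5, against 2534 to 4669 CPM in WT, and their part was not tested.

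By the labels, pifq differs from each triple mutant by the last PIF, and these comparisons stay within 1 set of libraries. Against pif134 the counts of all 4 PIFs were lower in pifq, PIF1 by -4.06 ± 0.64 (adjusted p = 0.000383) and PIF5 by -5.37 ± 0.52 (adjusted p = 2.27e-07), so that comparison and the PIF5 interaction do not differ by PIF5 alone. All 4 comparisons share the 3 pifq libraries. Against pif345, where PIF1 was the last to go, 3 of 32 members were called, against 2.75% of all loci. SAUR25 had 1.15, 0.991 and 1.01 CPM in pifq, against 6.54, 4.32 and 3.31 CPM in pif345 (-2.16 ± 0.54, adjusted p = 0.0209). SAUR3 had 17.3, 15.9 and 9.41 CPM in pifq, against 4.92, 4.24 and 3.52 CPM in pif345 (1.75 ± 0.39, adjusted p = 0.00859), and SAUR14 was also higher (1.26 ± 0.30, adjusted p = 0.0168). None of the 3 overlapped between the groups, and in 9 of 32 members every pifq library was above every pif345 library, against 11.4% of all loci. SAUR25 lost its call without pif345 A or any pifq library, SAUR3 without pif345 C or pifq B, and SAUR14 without any pif345 library or pifq B. The number called was 1 without pif345 A or pif345 C and 0 without pifq B. In the same comparison 5 of 10 seed storage markers were called lower (sums of 155 to 767 CPM in pifq, against 2381 to 4333 CPM in pif345), 7 of 8 antenna markers higher (31928 to 47665 CPM, against 10065 to 17712 CPM) and 1 of 5 root hair markers lower (1.42 to 7.69 CPM, against 5.57 to 9.57 CPM), and their part was not tested.

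Against pif145, where PIF3 was the last, no member was called, against 0.551% of all loci, DESeq2 called none, and 5 reached an unadjusted p under 0.05, against 8.11% of all loci. They were SAUR36 (-0.86), SAUR16 (-0.74), SAUR14 (0.72), SAUR3 (0.85) and SAUR25 (-1.18), with adjusted p from 0.435 to 0.588. Against the libraries labelled pif134 no member was called by edgeR, against 1.35% of all loci, and 8 reached an unadjusted p under 0.05, against 8.26%. DESeq2 called 2, against 1.94% of the loci it tested, namely SAUR25 (-2.04, adjusted p = 0.00716) and SAUR36 (-1.12, adjusted p = 0.0484). With the letters as a block within the set 4 members were called, against 3.35% of all loci: SAUR25 (-1.81), SAUR36 (-1.06), SAUR3 (1.20) and SAUR14 (0.94). Without pif134 B 1 member was called, and without pif134 C 2. All 5 root hair markers lay above 0 in pifq against pif134 (median 2.09, 1 called; sums of 1.42 to 7.69 CPM in pifq, against 0.475 to 1.84 CPM in pif134). Of 8 antenna markers 7 reached an unadjusted p under 0.05 and none was called (median 1.17; sums of 31928 to 47665 CPM in pifq, against 18848 to 25264 CPM in pif134), and the part of these markers was not tested.

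Against pif135, which by its label keeps PIF4 alone, 2 of 32 members were called, against 0.696% of all loci, and both were lower. The PIF4 count itself did not show its loss here (-0.44 ± 0.33, adjusted p = 0.647). SAUR23 had 7.26, 19.6 and 13.2 CPM in pifq, against 32.9, 41.4 and 36.4 CPM in pif135 (-1.46 ± 0.34, adjusted p = 0.0429), without overlap. SAUR16 had 15.2, 31.0 and 25.1 CPM in pifq, against 47.3, 65.9 and 80.0 CPM in pif135 (-1.44 ± 0.30, adjusted p = 0.0195), also without overlap. SAUR19 (-1.33 ± 0.35, adjusted p = 0.0711), SAUR25 (-1.67 ± 0.54, adjusted p = 0.151) and SAUR21 (-0.93 ± 0.30, adjusted p = 0.151) did not pass. In 11 of 32 members every pifq library lay below every pif135 library, against 9.43% of all loci, and the members' median was -0.52 against -0.02. With the letters as a block within the set 6 members were called, against 6.49% of all loci: SAUR23 (-1.49), SAUR16 (-1.44), SAUR19 (-1.27), SAUR25 (-1.67) and SAUR50 (-0.92) lower and SAUR3 (1.09) higher. SAUR16 lost its call without pif135 B, pif135 C or pifq A, and SAUR23 without these or pifq C, so 0 were called without pif135 B, pif135 C or pifq A and 1 without pifq C. Of the markers, 1 of 5 for root hairs was called lower in pifq than in pif135 (sums of 1.42 to 7.69 CPM in pifq, against 7.48 to 16.6 CPM in pif135) and none of the seed storage or antenna markers was called, and their part was not tested.

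Whether losing a PIF acted differently in WT and in the triple mutant that keeps it was tested as an interaction, the change in the single mutant against WT minus the change in pifq against the triple mutant. For PIF1, 1 of 32 members was called, against 0.653% of all loci. SAUR3 was lower when PIF1 was lost from WT (-1.37) and higher when it was lost from pif345 (1.75), a difference of -3.12 ± 0.55 (adjusted p = 0.00288). The call held without any 1 of the 12 libraries, with values from -3.36 to -2.73. With the 6 loci of the SAUR50 array summed the interaction was 0.09 (adjusted p = 0.935), and the change in pif1 against WT was 0.17 (adjusted p = 0.751). With the letters as a block within each set 3 members were called, against 13.4% of all loci: SAUR3 (-3.08), SAUR72 (-1.63) and SAUR25 (1.77). No marker was called in the PIF1 interaction, but all 8 antenna markers lay above 0 (median 1.05, 3 at an unadjusted p under 0.05) and 4 of 10 seed storage markers reached an unadjusted p under 0.05 (median -0.74), and their part was not tested.

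For PIF4, whose own count passed the test in neither of the comparisons involved, SAUR16 was called, 1 of 32 against 0.525% of all loci. It was at 38.9, 74.6 and 74.1 CPM in pif4, against 52.9, 33.5 and 40.6 CPM in WT, a change of 0.56 ± 0.29 that did not pass, while in pifq against pif135 it fell by 1.44. The difference between these changes was 2.00 ± 0.41 (adjusted p = 0.0216). The call was lost without WT B, WT C, pif4 B, pif4 C, pif135 C or pifq A, with values from 1.75 to 2.24 over all omissions. SAUR19 (2.02 ± 0.49, adjusted p = 0.0513), SAUR23 (1.89 ± 0.48, adjusted p = 0.0643) and SAUR66 (AT1G29500; 1.33 ± 0.35, adjusted p = 0.0762) came next without passing. In 25 of 32 members the interaction was above 0, with a median of 0.87 against 0.01 over all loci, and 16 of 32 reached an unadjusted p under 0.05, against 12.4% of all loci. The 5 root hair markers lay above 0 in the same interaction (median 0.89, from 0.75 to 2.90), 2 of them at an unadjusted p under 0.05 and none called, and their part was not tested. With the letters as a block within each set 9 members were called, against 7.01% of all loci, 8 above 0 (SAUR16, SAUR19, SAUR23, SAUR25, SAUR28, SAUR50, SAUR63 and SAUR66) and SAUR3 below it. The number called was 2 without WT A or pif4 A, 3 without pif135 A, 4 without pifq B, and 0 without each of the 6 libraries whose omission lost SAUR16.

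For PIF3 no member was called, against 0.219% of all loci, and 2 reached an unadjusted p under 0.05, against 5.93%. SAUR3 had the smallest adjusted p (-1.32 ± 0.53, adjusted p = 0.703), with 7.68, 7.61 and 5.76 CPM in pif3, against 14.3, 6.47 and 8.41 CPM in WT, and 17.3, 15.9 and 9.41 CPM in pifq, against 8.8, 11.8 and 2.91 CPM in pif145. For PIF5, with the libraries labelled pif134, no member was called, against 1.32% of all loci, and 5 reached an unadjusted p under 0.05, against 11.3%. SAUR3 again came first (-1.91 ± 0.54, adjusted p = 0.0762), with 4.73, 5.54 and 7.54 CPM in pif5 and 7.97, 6.34 and 4.23 CPM in pif134. Without pif134 A 1 member was called. With the letters as a block within each set 4 were called for PIF5, against 5.03% of all loci: SAUR3 (-1.89), SAUR14 (-1.28), SAUR6 (-1.26) and SAUR25 (1.68). In the PIF5 interaction all 5 root hair markers lay below 0 (median -2.39, 1 called), as did 7 of 8 antenna markers (median -1.37, 5 at an unadjusted p under 0.05, none called), and their part was not tested. DESeq2 was not run on the interactions.

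**Figure D4:**
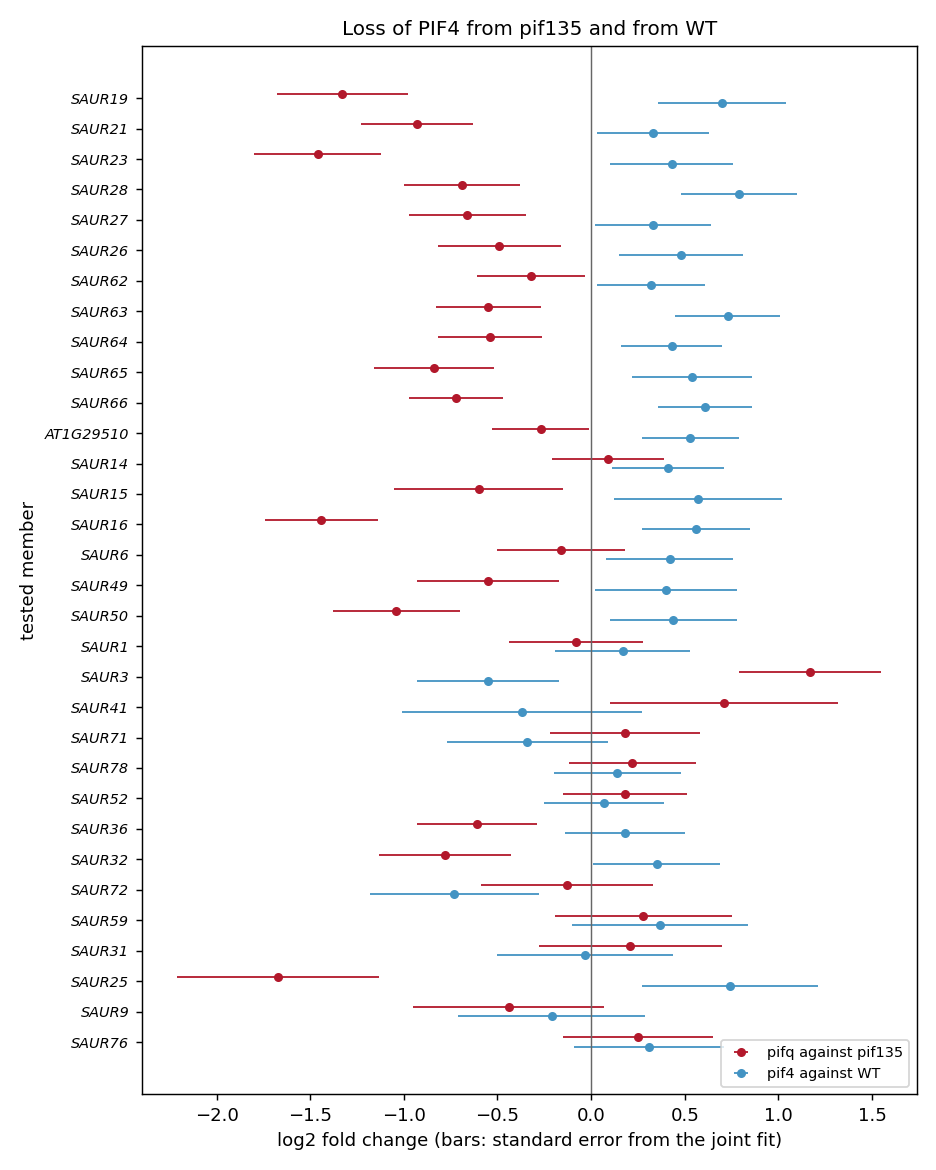
Log2 fold change (x axis, bars are standard errors from the joint fit) of each of the 32 tested members in the comparisons that differ by PIF4 according to the labels, pifq against pif135 (red) and pif4 against WT (blue); PIF4 counts did not show the loss in either. The red points of the SAUR19, SAUR26 and SAUR63 arrays all lie below 0 and the blue ones above it, and only the red changes of SAUR16 and SAUR23 had an adjusted p under 0.05.

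A test of any difference among the 4 triple mutants called 4 of 32 members, against 8.84% of all loci. SAUR66 of the SAUR63 array had the smallest adjusted p (F = 9.41, adjusted p = 0.00528). It was at 10.5, 9.22 and 6.72 CPM in pif345, 10.7, 11.6 and 10.7 CPM in pif145, 18.1, 21.9 and 21.8 CPM in pif135, 15.5, 8.97 and 10.7 CPM in pif134, and 15.9, 11.4 and 10.9 CPM in WT. Each pif135 library was thus above every library of the other triple mutants. SAUR63 (adjusted p = 0.0274), SAUR28 (AT3G03830; adjusted p = 0.0317) and SAUR14 (adjusted p = 0.0458) were also called, and each had its highest mean among the triple mutants in pif135, at 26.8, 10.4 and 100 CPM. The number called was 10 without pif134 A, 2 without pif345 A and 1 without pif345 B, pif345 C, pif135 C, pif134 B or pif134 C.

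The other genes of the SAUR pathway were taken from lists of their own. Of 9 PP2C.D phosphatases 1 was called in pifq against WT, where 15.2% of all loci were called, and it was PP2C.D1 (AT5G02760), known from apical hook opening. It had 70.2, 84.6 and 87.0 CPM in pifq, against 16.0, 23.7 and 25.5 CPM in WT (1.89 ± 0.35, adjusted p = 4e-04). It was also higher in pif1 (1.60 ± 0.35), pif145 (1.54 ± 0.35), pif135 (1.57 ± 0.35) and the libraries labelled pif134 (1.90 ± 0.35). Of 11 plasma membrane proton ATPases 8 were tested and 2 were called in pifq against WT. HA7 (AT3G60330) had 1.37, 1.37 and 2.03 CPM in pifq, against 5.38, 3.98 and 4.9 CPM in WT (-1.58 ± 0.38, adjusted p = 0.00441), and HA5 (AT2G24520) had 0.487, 0.613 and 0.82 CPM in pifq, against 0.0411, 0.193 and 0.0986 CPM in WT (2.36 ± 0.73, adjusted p = 0.0266). The main isoforms HA1 and HA2 were not called and averaged 220 and 138 CPM in pifq, against 191 and 173 CPM in WT. None of 9 auxin receptors and activating ARFs was called in pifq against WT, and 1 reached an unadjusted p under 0.05, against 29% of all loci.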

How the data were processed

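RNA from whole seedlings was sequenced as strand-specific libraries captured at the 3′ end, per the labels' protocols, so a count reflects transcript ends and is not scaled by length. The authors deposited raw read counts per locus, in 3 libraries for each of 10 genotypes. Of these, 3 deposited columns were handled as estimated counts because an unnamed last value was not whole; that value, at most 0.0015% of a library, was left out, and named values were 100% whole and used without change. Bowtie 0.12.7, edgeR and the build TAIR10 are named in the submitters' processing notes; how reads with several matches were counted is not given in the sources used here.

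Counts were analysed in R 4.3.3 with edgeR 4.0.16 and limma 3.58.1: loci were kept with filterByExpr at a minimum count of 10, libraries scaled by TMM (factors 0.779 to 1.2), and all 30 libraries fitted in 1 quasi-likelihood model. P-values were adjusted by Benjamini-Hochberg over 18680 loci, and members were called at an adjusted p under 0.05. Standard errors were obtained by dividing the size of each log2 fold change by the root of its F statistic. The fit was tested on simulated data, where most changes of 1 on the log2 scale were missed, so an uncalled member may still differ. Alternatives were RLE factors, library totals, no filter, DESeq2 1.42.0, only the genotypes compared, summed arrays, each library left out, and the replicate letter as a block. Same-letter libraries deviated together, with every correlation over 0.1, in 19 of 20 pairs of genotypes within a set of libraries and in 1 of 25 across sets, which was pif134 with WT. Nothing in the labels says what a letter shares. Promoter windows came from RefSeq's TAIR10.1.

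The members and the lists were chosen with earlier results of these data known. Values per library were given for members called in pifq against WT whose log2 fold change was 1 or more in size, for the largest called change in each other comparison and for the smallest adjusted p in each interaction and in the test among triple mutants; further members shown beside them were chosen after their values were seen.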

Additional observations from a re-analysis of the deposited data

Results flagged for a closer look

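The 4 interactions tested whether the change on loss of the same PIF, by the labels, differed between backgrounds. Those for PIF1 and PIF4 each held 1 called member of 32, against 0.653% and 0.525% of all loci. For PIF1 this was SAUR3, with an interaction of -3.12 ± 0.55 on the log2 scale (edgeR's quasi-likelihood test, adjusted p = 0.00288): the change was -1.37 in pif1 against WT and 1.75 in pifq against pif345. For PIF4 it was SAUR16, with 2.00 ± 0.41 (adjusted p = 0.0216): the change was 0.56 in pif4 against WT and -1.44 in pifq against pif135. The SAUR3 call held without any 1 of its 12 libraries, while the SAUR16 call was lost on omitting any 1 of 6 of its 12. With arrays summed neither call remained. The PIF4 counts did not show its loss in either comparison.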

How the results depend on the processing

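Each count of members called was recomputed under the alternatives, with shares of all loci given for DESeq2 and the replicate blocks only. With library totals in place of TMM it was 0 in pif1 and 0 in pif345 against WT, 4 in the PIF4 interaction and 8 among the triple mutants. Without the filter it was 1 in pifq against pif134. With DESeq2 it was 2 in pif1 (6.84% of all loci) and 3 in pif345 (5.88%) against WT and 2 in pifq against pif134 (1.94%). With only the genotypes compared in the fit it was 0 in pif345, 1 in pif145 and 1 in pif134 against WT and 0 in pifq against pif135. With arrays summed it was 0 in pif1 against WT, 1 in pifq against pif345, 0 in pifq against pif135 and 0 in both the PIF1 and PIF4 interactions, and SAUR3 changed sign, to 0.17 in pif1 against WT and 0.09 in the PIF1 interaction, because its array's total then stood for it. The cause of the other changes was not tested.

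With the replicate letter as a block over all libraries (replicate block) the count was 3 in pif1, 4 in pif345, 5 in pif145, 6 in pif135, 7 in pif134 and 8 in pifq against WT, 4 in pifq against pif135, 1 in pifq against pif134, 6 in the PIF4 interaction and 9 among the triple mutants. Of all loci, 12.3% were called in pif1, 9.65% in pif345, 21.7% in pif145, 22.1% in pif135, 25.2% in pif134 and 24.6% in pifq against WT. The share was 2.06% in pifq against pif135, 2.26% against pif134 and 2.59% in the PIF4 interaction. For the test among triple mutants it was not computed under the blocks. With the replicate block fitted separately within both sets of libraries the count was 4 in pif1, 1 in pif5, 6 in pif345, 5 in pif145, 7 in pif135, 8 in pif134 and 9 in pifq against WT, 6 in pifq against pif135, 4 in pifq against pif134, 3, 9 and 4 in the PIF1, PIF4 and PIF5 interactions and 15 among the triple mutants. Here 19.6% of all loci were called in pif1, 7.29% in pif5, 16.5% in pif345 and 29.6% in pif145 against WT. In pif135, pif134 and pifq against WT the share was 29.3%, 32.5% and 32.4%. It was 6.49% in pifq against pif135, 3.35% against pif134, and 13.4%, 7.01% and 5.03% in the 3 interactions. For pifq, pif345, pif145 and pif135 against WT the letters did not pair the libraries.

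With each library left out in turn, the count ran from 3 to 9 in pifq, 0 to 1 in pif345, 0 to 3 in pif145, 1 to 4 in pif135, 1 to 9 in pif134 and 0 to 2 in pif1 against WT, and was 0 throughout in pif3, pif4 and pif5. It ran from 0 to 2 in pifq against pif345, against pif135 and against pif134, and was 0 against pif145. It was 1 throughout in the PIF1 interaction, 0 in that of PIF3, 0 to 4 in that of PIF4, 0 to 1 in that of PIF5 and 1 to 10 among the triple mutants. Shares of all loci under these omissions are not given, so the ranges show only how calls depend on single libraries. Members near 1 CPM, such as SAUR71, rest on few reads. Each genotype has 3 libraries, and p-values use a spread estimated from all 30 libraries together.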

Other observations

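The tables held 33 further loci annotated as SAUR genes that are outside the 46 members, 14 of them listed at 0 in all libraries and 17 of them tested. In pifq against WT 3 of these 17 were called, all lower, where 7.17% of all loci were called lower: SAUR42 (AT2G28085; -1.90 ± 0.51, adjusted p = 0.0112), SAUR70 (AT5G20810; -1.29 ± 0.39, adjusted p = 0.0243) and AT1G29490, which lies within the span of the SAUR63 array (-1.15 ± 0.40, adjusted p = 0.0495). SAUR42 was also lower in pifq than in pif345 (-2.79 ± 0.50) and than in pif135 (-2.72 ± 0.50), and its PIF1 and PIF4 interactions were 3.55 ± 0.65 and 3.12 ± 0.66. It averaged 0.184 CPM in pifq and 0.706 CPM in WT, so few reads stand behind it. In the libraries labelled pif134, SAUR38 (AT2G24400) fell by 3.70 on the log2 scale against WT (SE 0.52, adjusted p = 8.22e-06), and it was higher in pifq than in pif134 (2.66 ± 0.54, adjusted p = 0.00649). These loci were picked after their values were seen.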
